A study of Homo sapiens with 12 samples.

Results

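Folliculin (FLCN), its partners, the Rag GTPases and the MiT/TFE transcription factors were followed as 10 genes chosen by name: FLCN, FNIP1, FNIP2, RRAGA, RRAGB, RRAGC, RRAGD, TFEB, TFE3 and MITF. All 10 were among the 58288 genes of the count table, and all 10 were among the 13959 genes that passed a filter on low counts and entered the tests. HK2 cells, which derive from human proximal tubule epithelium and were immortalized for culture, carried either a short hairpin RNA (shRNA) against FLCN or a nontarget shRNA, and were grown in the same serum-containing medium. Each was harvested after fewer than 30 passages (short-term) or, per the labels, more than 120 passages (long-term), while the study's methods set a lower minimum for long-term cells. Knockdown and nontarget cells at both times made 4 groups, each with 3 libraries that the labels call biological replicates. The stable lines were clones, and the clone behind each library is not given in the sources used here, so an effect of the shRNA and an effect of the clone cannot be told apart. Nor do the labels say whether replicates were separate cultures, so the p-values below cover only the spread between these libraries. Totals ran from 5825779 to 8991051 counts per library.

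FLCN binds FNIP1 or FNIP2 and, at the lysosome surface, acts as a GTPase-activating protein for RagC and RagD. Rag GTPases work as pairs of RagA or RagB with RagC or RagD and, when amino acids are present, bring the kinase complex mTORC1 to the lysosome. There mTORC1 phosphorylates TFEB, TFE3 and MITF, which keeps them in the cytoplasm. Without active FLCN these factors enter the nucleus and switch on lysosomal and autophagy genes, among them genes of the pathway itself. FLCN is the gene mutated in Birt-Hogg-Dubé syndrome, in which kidney tumors form. RNA counts measure transcript level only, not the location or phosphorylation of these proteins.

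MiT/TFE factors bind the E-box CACGTG, and the promoter stretches that hold it are shown here because some members are known targets of these factors. RefSeq promoters (GRCh38.p14, from 250 bases before to 50 after each start) gave 13 windows for 8 members, while RRAGA and RRAGD had no entry in the table. CACGTG, a palindrome searched on both strands, was found 6 times in the windows of 3 members, FNIP1, RRAGB and RRAGC. Of all 35116 promoter windows 7.26% held a match, which is a share of windows and not of members or of matches. The stretches follow, 5′ to 3′ on the gene's strand, with the motif in capitals and 10 bases on each side.
FNIP1, chr5:131797177-131797202, minus strand: ccgcccctgcCACGTGacgggacccg
FNIP1, chr5:131797096-131797121, minus strand: cgcgcgccgcCACGTGatgcggcccc
RRAGB, chrX:55717624-55717649, plus strand: gagccaaggcCACGTGatgatgacag
RRAGB, chrX:55717714-55717739, plus strand: tagcggcagtCACGTGacagactccg
RRAGB, chrX:55717746-55717771, plus strand: ggcagatgccCACGTGatcctggcct
RRAGC, chr1:38859869-38859894, minus strand: gtgattccggCACGTGacggggcacc
FNIP2, chr4:158805687-158805713, plus strand: gacactggctCACATGAgagccattaa

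RRAGB's second stretch also held the longer palindrome made of this E-box with GT before and AC after it, found in 0.353% of all promoters. In the FNIP2 stretch the capitals are the M-box TCATGTG read on the opposite strand, which 2.92% of all promoters held, and this window belongs to a downstream start of FNIP2. No CACGTG lay in the windows of FNIP2, FLCN, TFEB, TFE3 or MITF. These letters describe the sequence and not a binding site.

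Levels are given as CPM (counts scaled to library size) after TMM normalization and, for comparisons between genes, as CPM per kilobase of exon in GENCODE 29. This length joins the exons of all annotated transcripts of a gene, from 1589 bases for RRAGA to 10868 for FNIP2. The order between genes and the shares within families depend on that choice. Over the 12 libraries RRAGA had the highest per-length level (median 32.3 CPM per kb, range 29.2 to 40.5), followed by TFE3 (median 24.0, range 18.5 to 26.2) and MITF (median 11.1, range 8.50 to 13.5). Each of these 3 stood above the next gene in the order in all 12 libraries. RRAGB (median 4.56 CPM per kb) and FNIP1 (median 4.48) changed places between libraries, as did RRAGC (2.95), RRAGD (2.02) and FNIP2 (2.11). FLCN (median 0.914 CPM per kb, range 0.579 to 1.71) and TFEB (median 0.782, range 0.564 to 1.58) were the lowest and also overlapped. TFEB counts were only 18 to 69 per library, so small changes in TFEB were not detectable at this depth. Within the MiT/TFE family TFE3 thus made up 62.9% to 67.6% of the per-length level in the 4 group means, MITF 29.8% to 34.3% and TFEB 1.72% to 3.37%.

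FLCN, the target of the shRNA, was lower in both knockdown comparisons. FLCN (ENSG00000154803.12; GRCh38 chromosome 17, 17212212 to 17237188, minus strand) had 12.7, 16.7 and 16.5 CPM in the short-term nontarget libraries and 5.95, 6.58 and 5.66 CPM in the short-term knockdown libraries. In long-term cells the values were 9.92, 11.9 and 12.2 CPM without knockdown and 6.70, 6.31 and 7.97 CPM with it. At neither time did the groups overlap. The fitted log2 fold change was -1.33 ± 0.179 (SE) in short-term cells (edgeR adjusted p = 1.12e-04) and -0.70 ± 0.178 in long-term cells (adjusted p = 0.00611), that is 60.2% and 38.5% lower. The difference between these effects, 0.63 on the log2 scale (95% interval 0.09 to 1.16), did not pass the threshold after adjustment over all genes (adjusted p = 0.118). Long-term nontarget libraries lay below all short-term nontarget libraries (log2 fold change -0.43, adjusted p = 0.139), which did not pass either. AC055811.2, a gene model on the same strand, shares 11.9% of FLCN's exonic bases, and how the counting assigned reads there is not stated. In these bulk libraries fewer cells with FLCN RNA and less FLCN RNA per cell cannot be told apart.

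Among all 10 members, 3 passed the test (adjusted p under 0.05, Benjamini-Hochberg over all genes tested) after short-term knockdown, against 10.3% of all genes: FLCN was lower, and FNIP2 and RRAGD were higher. After long-term knockdown 4 passed, against 29.5% of all genes, and all 4 were lower, as were 15.8% of all genes: FLCN, FNIP2, RRAGD and MITF. FNIP2 and RRAGD therefore moved in opposite directions at the 2 times. The median log2 fold change of the 10 members was 0.03 after short-term and -0.30 after long-term knockdown, beside medians of all genes of -6.86e-05 and 9.51e-04. Both counts and both medians include FLCN, whose fall follows from the design because it is the target of the shRNA. The other calls were FNIP2 and RRAGD at both times and MITF after long-term knockdown. Without FLCN both shares of members called lie nearer those of all genes.

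**Figure D1:**
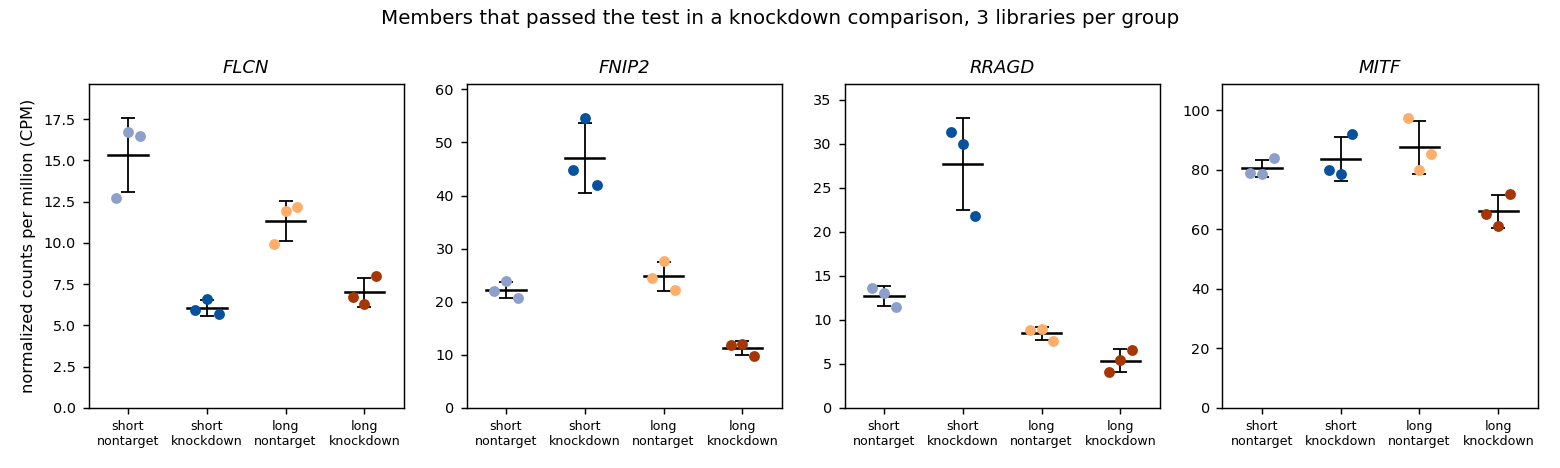
Normalized CPM (y axes, from 0) of FLCN, FNIP2, RRAGD and MITF in each of the 4 groups (x axes); points are libraries, horizontal bars the group mean and error bars the SD (n = 3). FNIP2 and RRAGD are highest in the short-term knockdown libraries and lowest in the long-term knockdown libraries, with no overlap between either knockdown group and its nontarget group.

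FNIP2, which encodes the folliculin-interacting protein expressed beside FNIP1, was higher after short-term and lower after long-term knockdown. FNIP2 (ENSG00000052795.12; chromosome 4, 158769138 to 158908049, plus strand) had 22.0, 23.8 and 20.7 CPM in short-term nontarget libraries and 44.8, 54.5 and 41.9 CPM after short-term knockdown. The long-term nontarget libraries held 24.4, 27.7 and 22.1 CPM, close to the short-term nontarget level, and the long-term knockdown libraries 11.9, 12.03 and 9.67 CPM. Every short-term knockdown library was therefore above, and every long-term knockdown library below, all 6 nontarget libraries. FNIP2 was higher by 1.09 ± 0.139 on the log2 scale in short-term knockdown libraries, a 2.12-fold rise (adjusted p = 7.44e-05). In long-term knockdown libraries its log2 fold change was -1.13 ± 0.152, a 2.19-fold fall (adjusted p = 2.06e-05). The test of the difference gave -2.22 ± 0.206 (95% interval -2.65 to -1.78; adjusted p = 1.10e-06), where 13.4% of all genes passed. Leaving out any single library kept this difference between -2.30 and -2.10.

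RRAGD encodes RagD, 1 of the 2 Rag proteins on which FLCN acts, and is itself a known target of the MiT/TFE factors. RRAGD (ENSG00000025039.14; chromosome 6, 89364636 to 89412270, minus strand) had 13.7, 13.1 and 11.5 CPM in short-term nontarget libraries and 31.4, 30.0 and 21.8 CPM after short-term knockdown. In long-term cells it had 8.84, 8.98 and 7.63 CPM without knockdown and 4.04, 5.43 and 6.61 CPM with it. No group overlapped another of these 4, and the long-term knockdown libraries were lowest. The log2 fold change was 1.13 ± 0.175 in short-term cells (2.18-fold higher, adjusted p = 4.02e-04) and -0.68 ± 0.213 in long-term cells (1.61-fold lower, adjusted p = 0.0215), and the difference was -1.81 ± 0.276 (95% interval -2.39 to -1.23; adjusted p = 1.88e-04). The long-term fall rested on few counts, 35 to 39 per knockdown library, and lost its call without nontarget replicate 1 (adjusted p = 0.0580), nontarget replicate 2 (0.0592) or knockdown replicate 1 (log2 fold change -0.50, 0.132). The difference between times passed in all 12 fits that left out a library.

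The paralogs of these genes did not pass in either knockdown comparison. FNIP1, the other FNIP protein, ranged from 26.5 to 39.2 CPM over all 12 libraries, and its log2 fold change was -0.06 (95% interval -0.35 to 0.24) after short-term and 0.01 (-0.28 to 0.31) after long-term knockdown. RRAGC, which encodes RagC, had 16.8, 22.3 and 14.1 CPM in short-term nontarget and 20.2, 21.1 and 13.3 CPM in short-term knockdown libraries, groups that overlapped almost fully (log2 fold change 0.04, -0.41 to 0.50). In long-term cells RRAGC had 18.4, 12.7 and 16.3 CPM without and 12.9, 14.1 and 8.82 CPM with knockdown (-0.39, -0.86 to 0.08; adjusted p = 0.205). AL139260.2, a noncoding transcript on the same strand, shares 22.9% of RRAGC's exonic bases. The interval of the RRAGC change after long-term knockdown still holds the fall seen for RRAGD, so a difference between these paralogs is not shown at that time.

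FNIP2 thus rose as a share of the per-length FNIP level from 30.4% ± 2.42 (SD, n = 3) to 49.0% ± 2.42 after short-term knockdown, and was 35.7% ± 2.42 and 20.1% ± 0.91 in long-term nontarget and knockdown cells. RRAGD's share of the RagC and RagD level was 42.6% ± 4.58 and 61.0% ± 1.70 in short-term cells. In long-term cells it was 35.7% ± 5.36 without and 31.9% ± 10.1 with knockdown, a difference well within the spread between libraries. RRAGB's share of the RagA and RagB level ran from 10.9% to 14.4% in the group means. These shares are described without a test.

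**Figure D2:**
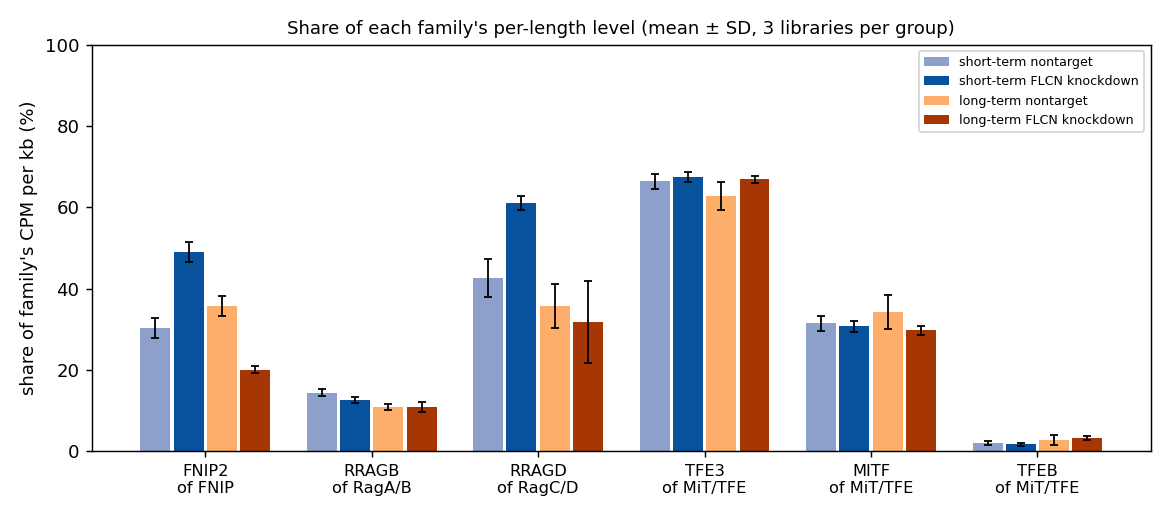
Share (y axis, %) of each family's summed CPM per kilobase held by the gene named on the x axis, as group means with SD error bars (n = 3 libraries per group). FNIP2's share is highest in short-term knockdown (49.0%) and lowest in long-term knockdown cells (20.1%), while the MiT/TFE shares lie close together in all 4 groups.

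RRAGA and RRAGB, which encode the partners RagA and RagB, did not pass in any comparison. RRAGA held 49.2 to 51.1 CPM in short-term nontarget and 46.4 to 53.0 CPM in short-term knockdown libraries, a log2 fold change of 0.01 (95% interval -0.22 to 0.23). In long-term cells it held 55.3 to 64.4 CPM without and 47.4 to 56.0 CPM with knockdown (-0.21, -0.43 to 0.01; adjusted p = 0.155). The long-term nontarget libraries lay above all short-term nontarget libraries, but this did not pass (0.25, adjusted p = 0.181). RRAGB had 15.2, 14.9 and 13.2 CPM in short-term nontarget libraries and 12.4 CPM in each short-term knockdown library, groups that did not overlap although the test did not pass (-0.22, adjusted p = 0.448). Not overlapping is common with 3 libraries a group: it held for 30.2% of all genes in short-term and 39.6% in long-term knockdown.

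MITF, best known as the master regulator of melanocytes but widely expressed, was the only MiT/TFE factor that passed in a knockdown comparison. MITF (ENSG00000187098.14) had 78.9, 78.7 and 83.9 CPM in short-term nontarget and 80.1, 78.5 and 92.2 CPM in short-term knockdown libraries, which overlapped (log2 fold change 0.05, adjusted p = 0.831). In long-term cells it had 97.3, 79.9 and 85.4 CPM without and 65.1, 61.0 and 71.9 CPM with knockdown, so that the long-term knockdown libraries were below every other library. The long-term change was -0.41 ± 0.108, or 24.7% lower (adjusted p = 0.00803), and it passed in all 6 fits that left out a library. The difference between the long-term and short-term effects was -0.46 ± 0.153 and did not pass (adjusted p = 0.0539). It was past the threshold with the replicate number as a block (0.0166), with DESeq2 (0.0385) and with the test limited to genes averaging 10 CPM or more (0.0449), as it was without long-term nontarget replicate 2 (0.0410) or long-term knockdown replicate 3 (0.0276). Whether this difference counts as called therefore depended on the processing.

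TFE3, the most abundant MiT/TFE transcript here, had 105, 104 and 95.8 CPM in short-term nontarget and 108, 108 and 112 CPM in short-term knockdown libraries. The knockdown libraries were all above, yet the change was small (log2 fold change 0.11, 95% interval -0.12 to 0.33; adjusted p = 0.608). In long-term cells it had 87.8, 97.3 and 103 CPM without and 84.7, 79.2 and 102 CPM with knockdown (-0.12, -0.34 to 0.11; adjusted p = 0.462). TFEB had 3.55, 5.16 and 3.93 CPM in short-term nontarget and 4.43, 3.36 and 3.19 CPM in short-term knockdown libraries (-0.18, -0.87 to 0.50). Long-term TFEB values were 4.02, 4.65 and 8.93 CPM without and 6.12, 4.402 and 7.29 CPM with knockdown (0.00, -0.62 to 0.62). The intervals of TFEB are the widest of the 10 members.

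**Figure D3:**
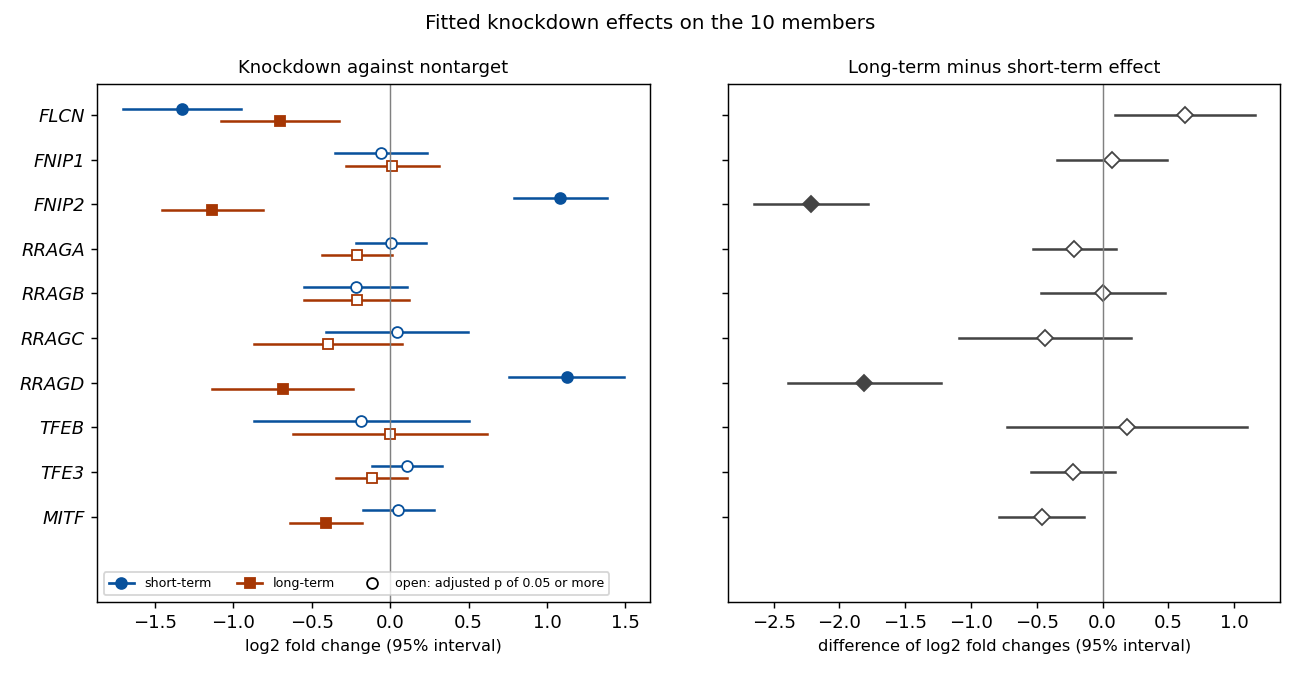
Fitted log2 fold changes of the 10 members with 95% intervals (x axes) for short-term and long-term knockdown against nontarget (left) and for the difference between the 2 effects (right); filled symbols passed an adjusted p of 0.05. FNIP2 and RRAGD lie to the right of 0 in short-term and to the left in long-term cells, and only these 2 differences are filled.

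The same libraries were also compared along culture time. From short-term to long-term nontarget cells none of the 10 members passed in edgeR or DESeq2, against 7.55% of all genes, and 3 were under an unadjusted p of 0.05 (FLCN, RRAGA and RRAGD). RRAGD was nearest, with -0.59 ± 0.192 (adjusted p = 0.0748), and passed when only the 2 groups were fitted (0.0392). Between long-term and short-term knockdown cells 4 of the 10 passed, against 26.6% of all genes, and all 4 were lower, as were 15.2% of all genes: FNIP2 by -2.06 ± 0.149 (4.18-fold, adjusted p = 1.84e-08), RRAGD by -2.40 ± 0.194 (5.27-fold, 8.09e-08), MITF by -0.34 ± 0.109 (0.0273) and TFE3 by -0.30 ± 0.107 (0.0442). These comparisons reuse the libraries of the knockdown comparisons and are not separate evidence.

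The falls of FNIP2 and RRAGD with time in knockdown cells passed in every fit that left out a library. MITF lost its call there without long-term knockdown replicate 1 (adjusted p = 0.0830) or 2 (0.0958) or short-term knockdown replicate 3 (0.107). TFE3 passed in only 1 of 6 such fits, with the highest adjusted p without long-term knockdown replicate 2 (0.170). With no filter on low counts, or with only the knockdown groups fitted, MITF (0.0555 and 0.0609) and TFE3 (0.0886 in both) lost their calls. RRAGC did not pass (-0.60 ± 0.221, adjusted p = 0.0523), but did when the replicate number was kept as a block (0.0121), and same-numbered knockdown libraries of the 2 times did deviate together. RRAGC also passed with DESeq2 (0.0445), with no filter on low counts (0.00932), and without long-term knockdown replicate 2 (0.0469) or short-term knockdown replicate 3 (0.0127). FNIP1, RRAGA, RRAGB, TFEB and FLCN did not pass between these groups, with log2 fold changes of -0.12, 0.04, -0.19, 0.67 and 0.20.

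**Figure D4:**
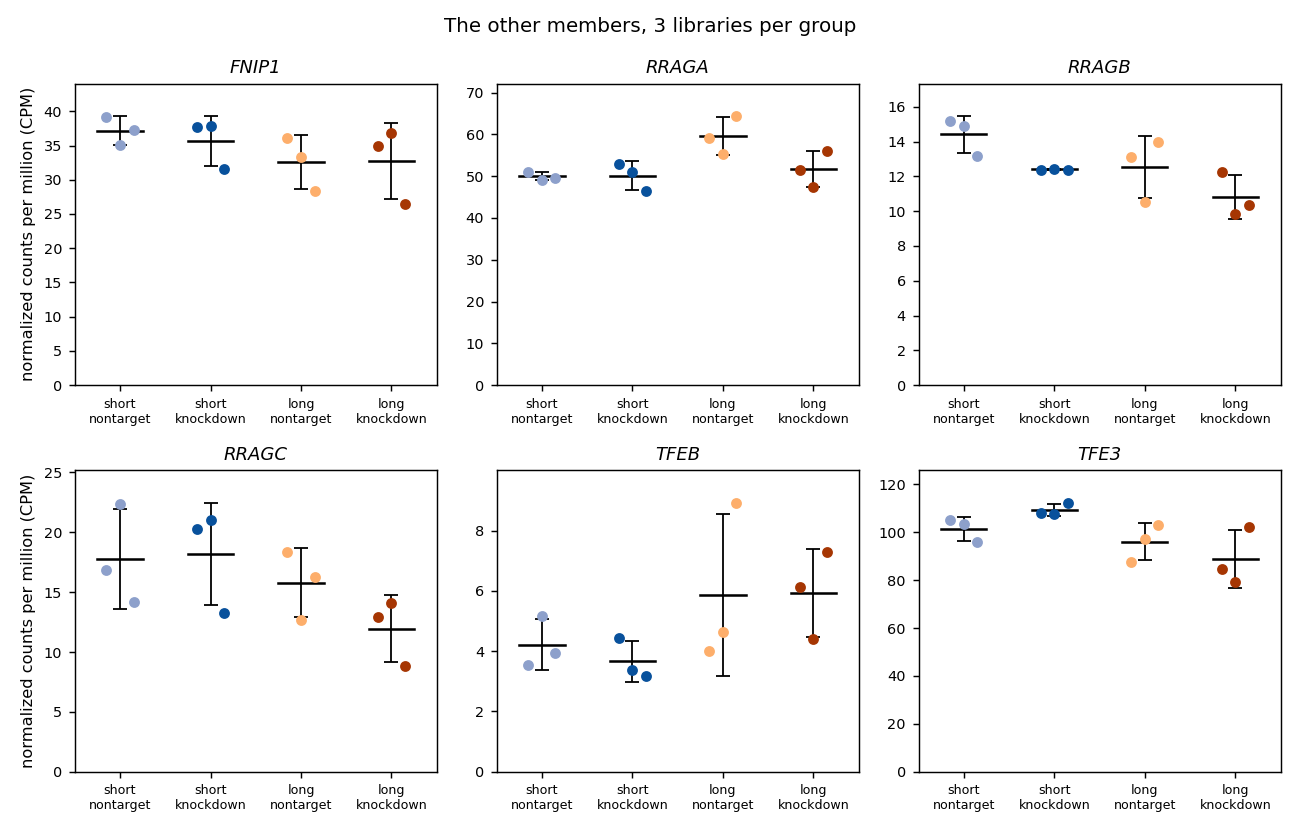
Normalized CPM (y axes, from 0) of FNIP1, RRAGA, RRAGB, RRAGC, TFEB and TFE3 by group (x axes); points are libraries, horizontal bars the mean and error bars the SD (n = 3). None of these 6 passed in a knockdown comparison, and in most panels the groups overlap.

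Over the 12 libraries log2 CPM of FNIP2 and RRAGD varied together (Pearson r 0.906), the highest r among the 45 pairs of members, and the lowest was between FNIP1 and TFEB (-0.713). FLCN itself had an r of -0.130 with FNIP2 and -0.160 with RRAGD. These r describe 12 libraries in 4 groups, of which those of a group share shRNA and passage class, and carry no test. Among 10189 other genes with a mean of at least 50 counts, the patterns most like that of FLCN were those of GTPBP2 (r 0.943), DPY19L1 (0.941) and ETV5 (0.937). The closest to FNIP2 were CFLAR (0.956), DNAJB2 (0.956) and FHL2 (0.955), to RRAGD PSMB9 (0.974), RAB15 (0.961) and DCAF4 (0.959), and to MITF CDV3 (0.930), SGPP1 (0.924) and VCL (0.921).

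Genes near the members on their chromosomes were read beside them. The 40 tested genes nearest FNIP2 had a median log2 fold change of -0.18 after short-term and 0.03 after long-term knockdown, where FNIP2 itself had 1.09 and -1.13. Of these 40 genes 10 passed after short-term and 21 after long-term knockdown, against 10.3% and 29.5% of all genes. For RRAGD the neighbors' medians were -0.16 and 0.11, with 3 and 10 of 40 called. The medians were 0.01 and 0.01 for FLCN (3 and 12 called), and -0.11 and -0.03 for MITF (7 and 12 called). The 40 genes spanned 16025.6 kb around FNIP2, 15791.8 kb around RRAGD, 21340.2 kb around MITF and 2791.2 kb around FLCN. The medians therefore cover unlike lengths of chromosome. These values are a description, with no test.

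Genes that work with the members were taken from 3 lists. Of 31 tested nutrient-sensing partners (32 listed: Ragulator, GATOR1, GATOR2, KICSTOR, amino acid sensors, mTORC1 and the C9orf72 complex), 1 passed after short-term knockdown, against 10.3% of all genes. It was SESN3, a sestrin, at -1.91 (adjusted p = 0.00242), named after its value was seen, with a mean of only 10.5 counts. After long-term knockdown 6 passed, against 29.5% of all genes, with a median over the list of 0.01: DEPDC5, LAMTOR2 and LAMTOR4 were higher, and DEPTOR, SMCR8 and C9orf72 lower, of which LAMTOR4 and C9orf72 were named after their values were seen. DEPTOR, an inhibitory subunit of mTORC1, was at 48.0 ± 4.14 CPM in long-term nontarget and 3.19 ± 0.977 CPM in long-term knockdown cells (log2 fold change -3.86, adjusted p = 9.85e-11). It had been at 21.2 ± 1.78 and 16.5 ± 0.849 CPM in short-term cells, and the difference between times was -3.50 (adjusted p = 2.23e-08).

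LAMTOR2 of Ragulator, the scaffold that holds the Rag GTPases on the lysosome, was higher after long-term knockdown (20.8 ± 1.61 against 33.1 ± 0.802 CPM, log2 fold change 0.67, adjusted p = 5.12e-04). DEPDC5, a subunit of GATOR1, the complex that inactivates RagA and RagB, was also higher (0.75, adjusted p = 0.00634), and Z82190.2 on the same strand shares 10.4% of its exonic bases. For DEPTOR (9.61%, AP005717.1) and LAMTOR4 (18.4%, C7orf43) the shared exonic bases lie on the opposite strand, and whether the counting used strand is not stated. SMCR8, a partner of C9orf72 with a FLCN-like fold, was lower (-0.40, adjusted p = 0.0108), a call lost without long-term knockdown replicate 2 (0.0567). The difference between the 2 times passed for 2 of the 31 genes, DEPTOR and KICS2, against 13.4% of all genes. KICS2 of KICSTOR (0.87, adjusted p = 0.0245) lost its call in 4 of the 12 fits without a library. These were the fits without short-term nontarget replicate 2 (0.0609), short-term knockdown replicate 2 (0.0503), long-term knockdown replicate 2 (0.0602) or long-term nontarget replicate 3 (0.0536). The KICS2 call was also lost with DESeq2 (0.0556) and with no filter on low counts (0.0772).

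Among 24 tested FLCN partners and regulators of TFEB and TFE3 (25 listed), 3 were higher and none lower after short-term knockdown, a share near the 10.3% of all genes called. YWHAQ, a 14-3-3 protein of the kind that holds phosphorylated TFEB and TFE3 in the cytoplasm, rose from 620 ± 30.6 to 867 ± 24.9 CPM (log2 fold change 0.48, adjusted p = 0.00319). PPP3R1 of the phosphatase calcineurin (0.42, adjusted p = 0.0442) and PKP4, a junction protein that binds FLCN (0.39, adjusted p = 0.0355), passed in only 1 of 6 fits that left out a library. Their adjusted p values reached 0.164 without short-term knockdown replicate 3 and 0.155 without short-term knockdown replicate 2. PPP3R1 shares 13.7% of its exonic bases with AC017083.3 on the same strand and 20.8% with AC017083.2 on the opposite strand. The count was 1 without short-term nontarget replicate 1, 2 or 3 or short-term knockdown replicate 1. With the replicate number as a block it was 6, so the nearness to the share of all genes depended on the processing.

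After long-term knockdown 11 of the 24 passed, 7 higher and 4 lower, against 29.5% of all genes. BABAM2 rose from 19.0 ± 2.00 to 52.9 ± 3.21 CPM (1.47, adjusted p = 1.43e-07), YWHAQ (0.73) and YWHAE (0.70) also rose, and SFN, the 14-3-3 sigma protein, fell from 21.8 ± 3.89 to 10.9 ± 3.22 CPM (-1.01, adjusted p = 9.48e-04). BABAM2 shares 9.55% of its exonic bases with MRPL33 on the same strand. The difference between times passed for 4 of the 24, near the 13.4% of all genes: BABAM2 (1.28), YWHAE (0.63), SFN (-1.28) and PKP4 (-0.51, adjusted p = 0.0420). PKP4's call was lost in 9 of the 12 fits without a library, with the highest value, 0.110, without short-term knockdown replicate 2.

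Genes that TFEB and TFE3 are known to switch on made up the third list, and all 33 were tested. After short-term knockdown 6 were higher and 1 was lower, against 10.3% of all genes called, and the median over the list was -0.02. GPNMB, a membrane glycoprotein of lysosomes and melanosomes, rose from 6.17 ± 0.958 to 51.4 ± 18.6 CPM (log2 fold change 3.06, adjusted p = 6.55e-07). SQSTM1, the autophagy receptor p62, rose from 268 ± 12.1 to 527 ± 56.4 CPM (0.98, adjusted p = 1.72e-05), although 20.7% of its exonic bases overlap MRNIP on the opposite strand. PSAP, the precursor of the saposins, rose by 0.67 (adjusted p = 0.00287). PPARGC1A, a coactivator of mitochondrial biogenesis, rose by 0.73 (adjusted p = 0.00852), a call lost without nontarget replicate 1 (0.0532) or 2 (0.0610). GAA, the lysosomal acid alpha-glucosidase, was the gene that was lower (-0.52, adjusted p = 0.0149) and was named after its value was seen. Leaving out a library moved the count between 4 and 8, and the lowest was without short-term nontarget replicate 1.

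After long-term knockdown 16 of the 33 targets passed, 7 higher and 9 lower, with a median of -0.06, against 29.5% of all genes. PPARGC1A (1.46, adjusted p = 3.33e-06), GAA (1.05, 5.23e-06), GPNMB (0.96, 0.0109) and SQSTM1 (0.64, 2.36e-04) were higher, and GAA therefore changed sign between the times. NEU1, the lysosomal sialidase, fell from 222 ± 28.6 to 127 ± 15.4 CPM (-0.81, adjusted p = 2.18e-05). Of 10 lysosomal membrane and proton pump genes 5 were lower, ATP6V1B2, ATP6V1C1, ATP6V1D, ATP6V1H and ATP6AP1, and 1 was higher, ATP6V0E1, where 15.8% of all genes were lower. These were singled out after their values were seen, and of 15 lysosomal hydrolases 3 were higher and 3 lower. The difference between times passed for 8 of the 33 targets, 3 positive and 5 negative, against 13.4% of all genes, among them GPNMB (-2.10, adjusted p = 7.23e-04), GAA (1.57, 1.05e-05), NEU1 (-0.76, 0.00253) and NAGLU (0.78, 0.0459). The count of 8 fell to 3 to 5 without any of the short-term nontarget libraries, short-term knockdown replicate 1 or 2, long-term nontarget replicate 1 or 2, or long-term knockdown replicate 3. NAGLU's call was lost in 8 of the 12 fits that left out a library, with the highest value, 0.105, without short-term knockdown replicate 2, and 12.6% of its exonic bases overlap AC067852.1 on the same strand.

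**Figure D5:**
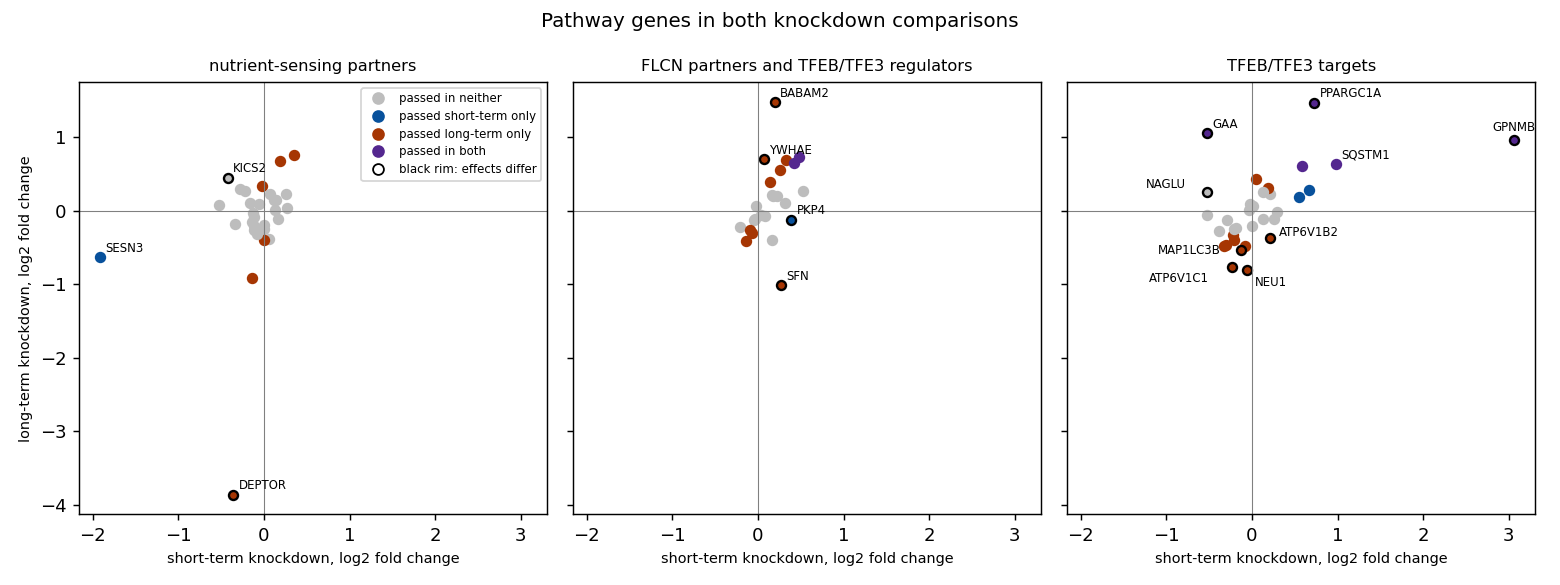
Log2 fold change after short-term (x axis) and long-term (y axis) knockdown for each tested gene of the 3 lists; colors give the comparisons in which a gene passed an adjusted p of 0.05, and a black rim marks genes whose 2 effects differed. GPNMB lies far to the right at 3.06, DEPTOR far down at -3.86, and most nutrient-sensing partners lie near the origin.

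The labelled cell type was checked against marker genes. Of 12 proximal tubule markers only SLC5A2, GGT1 and DPP4 entered the tests, and LRP2, SLC22A6, SLC22A8 and HNF4A were at 0 in all 12 libraries. The list held 11 tested genes, of which 3 passed after short-term knockdown (2 higher), against 10.3% of all genes, and 5 after long-term knockdown (1 higher), against 29.5%. DPP4, a brush border peptidase, was at 107, 126 and 110 CPM in the short-term nontarget, short-term knockdown and long-term nontarget group means and at 26.0 CPM in long-term knockdown cells. GGT1, a gamma-glutamyltransferase of the same membrane, went the other way, from 36.3 to 65.5 CPM in long-term cells, while SLC5A2 (10.02 and 14.2 CPM) did not pass (adjusted p = 0.0609). C16orf58 on the opposite strand overlaps 31.1% of SLC5A2's exonic bases, and SNRPD3 on the same strand 6.9% of GGT1's. Of 10 kidney epithelial genes PAX8, KRT8, KRT18, CDH2, EPCAM, VIM and HAVCR1 were at 20.7 CPM or more in every group mean, and KRT19 was at 32.8 and 32.6 CPM in short-term and 5.07 and 4.19 CPM in long-term nontarget and knockdown cells. PAX2 (19 counts in all) and CDH1 (26 counts) were near absent, with 0 counts in the long-term knockdown group. The sum of all 22 markers was 3894 to 5441 CPM in short-term and 3659.6 to 4834.7 CPM in long-term libraries. Most of it came from KRT8, VIM and KRT18 (1680, 995 and 645 CPM in the short-term nontarget mean), not from the proximal tubule markers. Of 9 markers of immune, endothelial, podocyte and distal nephron cells none was tested, their sums were 0.155 to 1.77 CPM, and PTPRC, NPHS1 and UMOD were at 0.

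Because MITF is the melanocyte factor, 6 melanocyte markers were read beside it, and 2 of them, PMEL and MLANA, entered the tests. MLANA, a melanosome protein, had 3, 1 and 7 counts in the short-term nontarget, short-term knockdown and long-term nontarget groups and 525 counts, 24.0 CPM, in the long-term knockdown group (log2 fold change 6.14, adjusted p = 1.29e-09). It rose in the group where MITF was lowest. PMEL did not pass (5.81 CPM against 6.58 CPM), TYR was at 0 and SOX10 had 1 count in all. The list's sum was 25.8 to 32.6 CPM in long-term knockdown libraries and 3.92 to 8.67 CPM in the others, and its part in the change of MITF was not tested.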

How the data were processed

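Polyadenylated RNA of 12 libraries (4 groups of 3) was sequenced after TruSeq v2 preparation, and reads were trimmed, aligned with STAR to GRCh38 and counted per gene with featureCounts by the authors. Versions, annotation release and strand setting are not given in the sources used here. The deposited values are raw counts, and the whole-number score columns beside them, counts that the authors divided by a DESeq2 size factor, were not used. The table and the per-library files differed in 0 values. Identifiers were matched to GENCODE 29 without version, and MITF's version differed, so its coordinates are not printed.

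All 12 libraries entered 1 edgeR 4.0.16 model (R 4.3.3) with a term per group: TMM, filterByExpr, robust quasi-likelihood fit, prior count of 0.125, adjusted p below 0.05 over 13959 genes holding 99.8% of counts. The coefficient of biological variation was 12.0%. Alternatives included DESeq2 (here 1.42.0), which the authors used in a version not given, other filters and scalings, a fold limit of 2.5 and a replicate block. Same-numbered libraries deviated together between knockdown times (r 0.451 to 0.666). In long-term knockdown they did so for replicates 1 and 3 (r 0.523 and 0.672). For replicate 2 the r there was 0.211, below the highest r of short-term knockdown. In the other comparisons r ran from -0.0203 to 0.216 (short-term knockdown) and from -0.106 to 0.189 (nontarget times), which was not taken as pairing. The self-test used simulated counts. All 10 members were named, and of each list, in the knockdown comparisons and their difference, the 4 genes with the largest change past the threshold and a mean of at least 50 counts. SQSTM1 in long-term cells and the markers were named outside this rule, as were the genes said to be. Members and lists were chosen with earlier results of these data known.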

Additional observations from a re-analysis of the deposited data

Results flagged for a closer look

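The knockdown effect on FNIP2 differed between the 2 culture times, with every short-term knockdown library above and every long-term knockdown library below its nontarget libraries. The long-term effect minus the short-term effect was -2.22 on the log2 scale (edgeR adjusted p = 1.10e-06, n = 3 libraries per group). RRAGD differed in the same direction, by -1.81 (edgeR adjusted p = 1.88e-04). Its long-term fall taken alone passed in only 3 of 6 fits that left out a library. In both genes leaving out any of the 12 libraries, in turn, kept the difference past the threshold. The clones behind the short-term and long-term libraries are not given, so culture time and clone cannot be told apart in these differences.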

How the results depend on the processing

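Of 547 log2 values of single genes recomputed under another normalization, test, filter, set of libraries or block, 522 kept their direction and their side of the threshold, as did 609 of 702 that left out a library. Counts of called genes stayed within 1.5 times in 74 of 94 and 90 of 108 cases. Requiring a fold of 2.5 as well left 1 of the 10 members after short-term knockdown (FLCN), 0 after long-term knockdown and 2 between knockdown times. Under it the nutrient-sensing partners, FLCN partners with regulators, and targets counted 1, 1 and 1 after long-term knockdown and 1, 0 and 2 for the difference between times, and the last 2 lists 0 and 1 after short-term knockdown. Fitting only the 2 groups compared gave 1 member in place of 0 between nontarget times and 2 in place of 4 between knockdown times. The nutrient-sensing partners numbered 1 for the difference between times with DESeq2, with no filter and with genes at 10 CPM or more, and 0 in short-term knockdown under the last, where FLCN and TFEB could not be tested. Values near 0 changed sign for TFEB after long-term knockdown with RLE factors (-0.00174) and for the RRAGB difference at 10 CPM (-0.00348).

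The replicate block gave 6 FLCN partners with regulators and 11 targets after short-term knockdown, and 1 member between nontarget times, RRAGD. After long-term knockdown the block gave 8 nutrient-sensing partners, 12 FLCN partners with regulators and 17 targets, in place of 6, 11 and 16. For the difference between times the block gave 3, 4 and 11 genes of these lists, in place of 2, 4 and 8. It also brought MITF's difference between times (adjusted p = 0.0166) and RRAGC's fall between knockdown times past the threshold, and in knockdown comparisons it changed no other call on a member.

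Without a library, the counts ran from 1 to 3 for FLCN partners with regulators and 4 to 8 for targets after short-term knockdown, from 2 to 4 for members between knockdown times, and, for the difference between times, from 1 to 3 for nutrient-sensing partners and 3 to 8 for targets. Log2 values that changed sign, none of them called, ran after short-term knockdown from -0.0994 to 0.0226 (FNIP1), -0.0368 to 0.0576 (RRAGA), -0.0919 to 0.24 (RRAGC) and -0.0208 to 0.0964 (MITF). After long-term knockdown they ran from -0.0864 to 0.14 (FNIP1) and -0.22 to 0.44 (TFEB). With time they ran from -0.30 to 0.0303 for RRAGC without knockdown, and with it from -0.23 to 0.00208 for FNIP1 and -0.0203 to 0.0832 for RRAGA. Differences between times ran from -0.0299 to 0.20 (FNIP1), -0.11 to 0.0846 (RRAGB) and -0.0345 to 0.63 (TFEB). TFEB had 18 to 69 counts per library, a depth at which small changes were not detectable. The causes of these changes were not tested.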
